A study of Homo sapiens with 15 samples.

Results

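The genes described here encode the general factors of translation initiation and elongation other than the cap-binding eIF4 group: eIF1 and eIF1A, eIF2, its exchange factor eIF2B, the 13 subunits of eIF3, eIF5, eIF5A, eIF5B and eIF6, and the elongation factors eEF1A, eEF1B and eEF2. They were listed by gene name and role, not by a threshold on measured values, and number 33 of the 59608 genes in the deposited table. All 33 were found in the table, and 32 had a mean of at least 10 normalised counts over the 15 libraries and were tested among 13561 such genes. EEF1G, the gamma subunit of the eEF1B exchange complex, was listed at 0 in all 15 libraries.

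The cells were MDA-MB-231, an established human triple-negative breast cancer line, grown in 2D culture in 10 cm dishes and treated for 6 h. ZJ-101, a simpler relative of the sponge metabolite superstolide A, was given at 0.5, 5, 50 or 500 nM, and control dishes received 0.1% DMSO. Each of the 5 groups held 3 biological replicates, and polyadenylated RNA was sequenced from each. The unit throughout is the read count of a gene divided by its library's size factor, called here the normalised count, and changes are given on the log2(normalised count + 1) scale. These are relative mRNA levels in bulk samples, in which fewer cells carrying a transcript and less of it per cell cannot be told apart.

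Translation starts when a small ribosomal subunit carrying eIF1, eIF1A, eIF3 and eIF5 receives the initiator tRNA from GTP-bound eIF2 and scans the mRNA for a start codon. eIF5 makes eIF2 hydrolyse its GTP when the codon is found, eIF2B reloads eIF2 with GTP, and eIF5B joins the large subunit. Elongation then runs on eEF1A, which delivers aminoacyl-tRNA, on the eEF1B complex, which recharges eEF1A, and on eEF2, which moves the ribosome by one codon. Stress kinases lower initiation by phosphorylating eIF2α, the product of EIF2S1. Many mRNAs of the elongation factors and of some eIF3 subunits begin with a cytosine followed by an unbroken pyrimidine run, the 5′ terminal oligopyrimidine (TOP) start, which places their translation under control of mTOR and LARP1.

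TOP starts are shown first because they divide the matched genes by a feature of their annotated starts. Neither the starts used in these cells nor translation was measured here. Of the 33 genes, 26 had an annotated RefSeq start in the promoter table (build GRCh38.p14), and 8 of these 26 (30.8%) had a start with C as its first base and C or T in the next 4. The same rule was met by 48 of 69 cytosolic ribosomal protein genes (69.6%) and by 1404 of all 27305 genes in that table (5.14%). EIF2S2, EIF3A, EIF3E, EIF3G, EIF3H, EIF3L and EEF1D were not matched. The 8 windows below are read 5′ to 3′ on the gene's strand, with 10 bases before the start and 20 from it, and capitals mark the pyrimidine run that begins at the first transcribed base.
EEF1A1 (chr6:73521013-73521042, minus strand): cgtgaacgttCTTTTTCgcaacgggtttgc
EEF1B2 (chr2:206159885-206159914, plus strand): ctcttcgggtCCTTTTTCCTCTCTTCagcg
EEF2 (chr19:3985444-3985473, minus strand): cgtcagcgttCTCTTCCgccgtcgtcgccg
EIF2S3 (chrX:24054946-24054975, plus strand): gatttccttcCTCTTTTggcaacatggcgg
EIF3D (chr22:36529147-36529176, minus strand): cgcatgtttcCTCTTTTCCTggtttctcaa
EIF3F (chr11:7987327-7987356, plus strand): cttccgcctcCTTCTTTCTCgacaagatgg
EIF3K (chr19:38619178-38619207, plus strand): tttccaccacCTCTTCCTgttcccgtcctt
EIF3M (chr11:32583821-32583850, plus strand): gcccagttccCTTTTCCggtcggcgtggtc

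For contrast, the start of EIF2S1 holds no such run, and EIF5, the one gene that passed the test at 500 nM, had no TOP start either. Of the annotated RefSeq starts of EIF5, only a window with the 8 letters GAANNTTC, where N is any base, was kept. The match in that window was therefore fixed by the choice. In EIF2S1 nothing is in capitals, and in EIF5 the capitals mark those letters.
EIF2S1 (chr14:67360318-67360347, plus strand): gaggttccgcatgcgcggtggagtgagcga
EIF5 (chr14:103334227-103334256, plus strand): ggcgttgttcagtcagagcgaGAACATTCc

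Over the 300 bases from 250 before to 50 after the start, both strands searched, GAANNTTC was found in 3 of the 26 matched genes (11.5%: EEF1A1, EEF1B2 and EIF5) and in 8.21% of all 27305 genes with promoters of that length, each gene counted once over its starts. CACGTG was found in 4 of 26 (15.4%: EIF1B, EIF2B3, EIF3F and EIF3K) against 8.77% of all, and TGATGCAA in 0 of 26 against 1.08%. None of the 3 motifs contains another, and a match is a description of the letters only.

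Sequencing gave 12415519 to 15284762 reads on genes per library. The line's defining transcripts were high, with vimentin (VIM) at 13433 to 18413 and moesin (MSN) at 15270 to 17908 normalised counts. The estrogen receptor ESR1 reached at most 4.30 and the leukocyte marker PTPRC at most 3.53, and both had libraries at 0. The other low markers were detected, with the progesterone receptor PGR at 5.37 to 17.3, the luminal factor GATA3 at 122 to 168, the epithelial cadherin CDH1 at 107 to 206 and the endothelial marker PECAM1 at 201 to 321. At 500 nM, 2 of the 5 high markers passed the test, CD44 at -0.38 and AXL at 0.22 on the log2 scale, and of the 4 tested low markers CDH1 fell by 0.54. CDH1 was also lower at 0.5 nM (-0.79, adjusted p = 0.012) and 5 nM (-0.66, adjusted p = 0.019), and CD44 (-0.29) and AXL (0.15) passed at 50 nM; their part in the results below was not tested. One library stood apart from its group. Comparing counts over genes within each group, chi-square divided by its degrees of freedom ran from 2.04 to 16.6. The pairs with replicate 2 of 0.5 nM gave 11.1 and 16.6. That library held the highest value of the 15 libraries for 22 of the 32 tested genes. Their median difference from the DMSO mean was 0.15 on the log2 scale there and -0.03 to 0.07 in the other 14 libraries. The ribosomal protein genes moved with it, at a median difference of 0.31 in that library and -0.05 to 0.09 in the others. Its mitochondrial share of reads was 1.88%, within the 0.889% to 2.06% over all libraries, and the part of that share in the result was not tested.

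**Figure D1:**
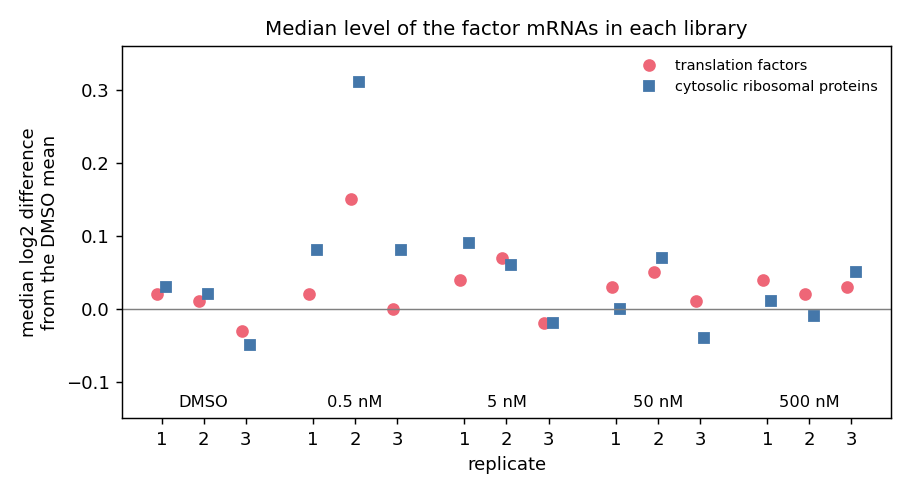
Each point is 1 library and gives, on the vertical axis, the median log2 difference from the DMSO mean over the 32 tested factor genes (circles) and over the ribosomal protein genes (squares). The second 0.5 nM library lies at 0.15 and 0.31, above every other library on both measures.

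In DMSO these mRNAs spanned a wide range. Per kilobase of the canonical transcript, EEF1A1 stood highest at 40894 ± 996 normalised counts (SD, n = 3), followed by EEF2 at 7730 ± 210, EEF1B2 at 6003 ± 109 and EIF5A at 5972 ± 81.7. The last 2 of these overlapped in their spread. The start-codon factor EIF1 was at 2982 ± 51.3 per kilobase, and its paralog EIF1B was at 526 ± 33.2. The 3 eIF2 subunits lay at 1068 ± 35.7 (EIF2S1, alpha), 1740 ± 19.8 (EIF2S2, beta) and 603 ± 12.2 (EIF2S3, gamma). The eIF2B subunits stood at 657, 244, 454, 251 and 451 per kilobase for EIF2B1 to EIF2B5, so that EIF2B1 was above EIF2S3 and the other 4 were below all eIF2 subunits. Of eIF3, 12 subunits had a median of 1265 per kilobase with a range of 488 to 2830, and EIF3C was at 228 ± 48.3. The order depends on the length used: per kilobase of coding sequence, EIF1 stood at 20567 and EIF5A at 16338, both above EEF2 at 9483.

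**Figure D2:**
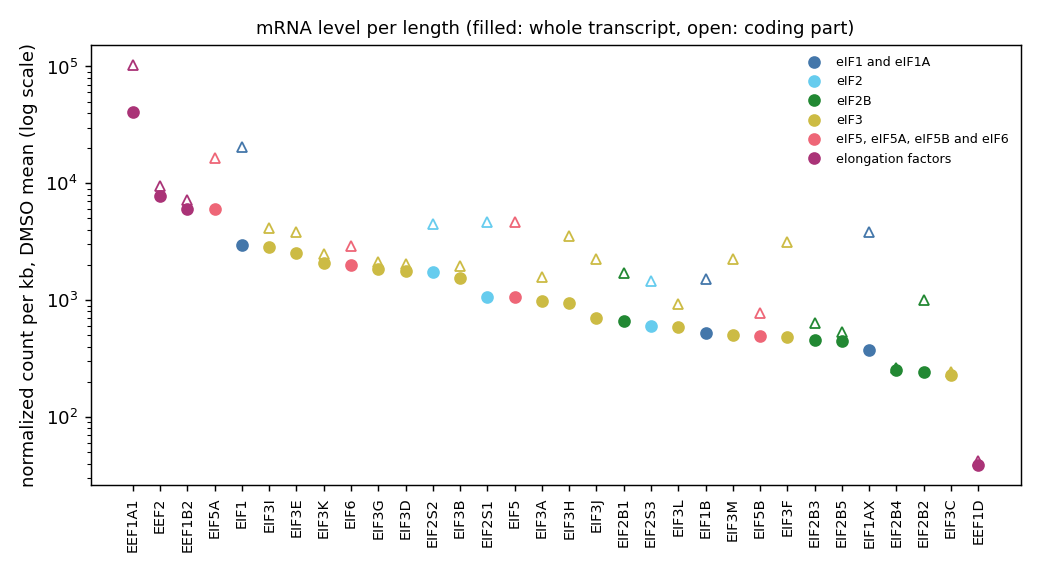
Mean levels in the 3 DMSO libraries are normalised counts per kilobase, on a log axis, with filled circles for the whole canonical transcript and open triangles for its coding part, for the 32 tested genes coloured by role. Per whole transcript EEF1A1 is highest at 40894, and the eIF2B subunits lie between 244 and 657.

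The 33 genes together held 1.91% ± 0.0318 of all reads on genes in DMSO (SD, n = 3). The share was 2.00% ± 0.0935 at 0.5 nM, 1.93% ± 0.0514 at 5 nM, 1.90% ± 0.0483 at 50 nM and 1.89% ± 0.0178 at 500 nM. EEF1A1 alone made up 0.989% to 1.19% of the reads of a library.

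At 500 nM, EIF5 rose by 17.6% and no other gene among the 32 passed the test in either direction. EIF5 is the GTPase-activating protein of eIF2, so its product acts at the step where a start codon is accepted. The test was limma on all 15 libraries with Benjamini-Hochberg adjustment over the 13561 genes, at an adjusted p under 0.05. It called 17.8% of all tested genes at this dose, 7.69% higher and 10.1% lower, against 1 of 32 factor genes (3.12%). The median absolute log2 change was 0.06 over the 32 genes and 0.12 over all genes. These factor mRNAs are abundant, so the comparison was also made among genes with a mean of at least 1000 normalised counts: 27.2% of 3452 such genes were called, against 1 of the 27 factor genes among them, and the median absolute change was 0.09 over the former and 0.05 over the latter. Of the 32 genes, 27 (84.4%) lay within 0.1 log2 of no change, compared with 42.1% of all tested genes, a window chosen after the values were seen.

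The intervals bound what could have been missed. At 500 nM the 95% interval lay within 0.5 log2 of no change for 31 of the 32 genes and within 0.3 for 28. EIF5, EIF5B, EIF3C and EEF1D reached past 0.3, and of these only EEF1D reached past 0.5. Samples with no overlap between the 500 nM and DMSO groups were seen for 9 of 32 genes (28.1%), 8 higher and 1 lower, against 38.5% of all tested genes (18.9% higher, 19.6% lower). The 8 higher genes were EIF2S2, EIF3A, EIF3E, EIF3G, EIF5, EIF5A, EIF5B and EIF6, and the lower one was EEF1A1.

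**Figure D3:**
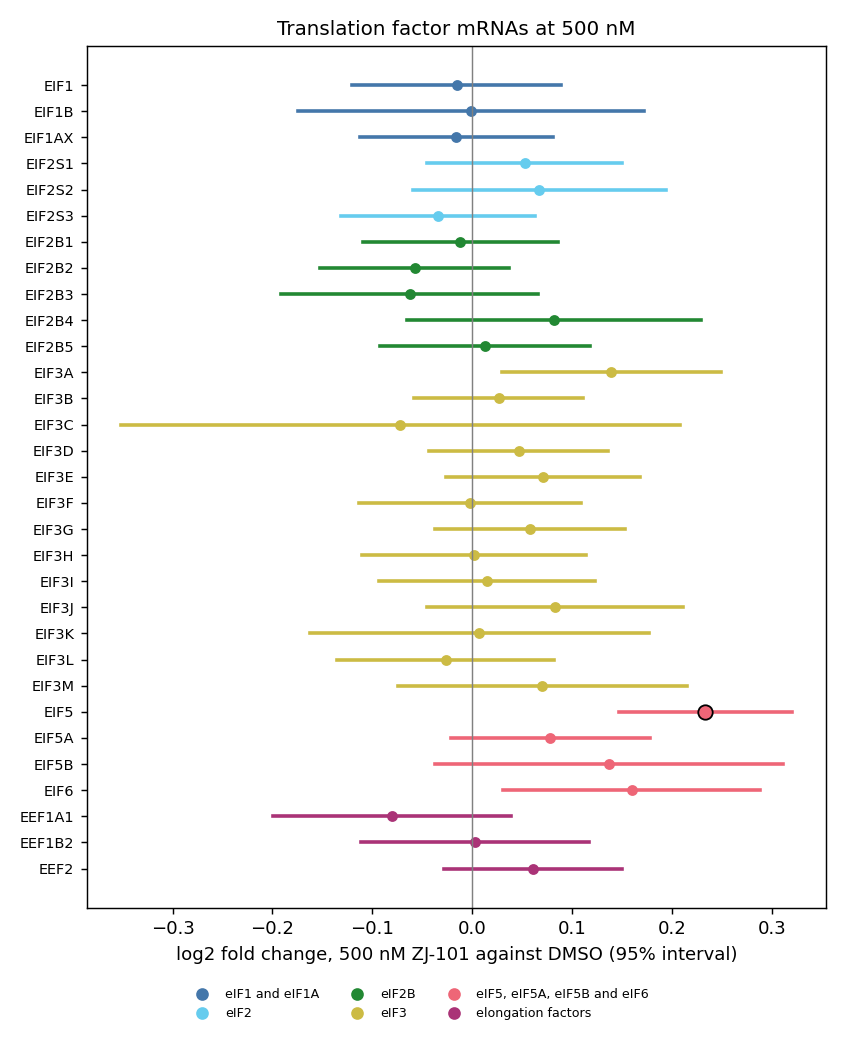
Log2 change at 500 nM against DMSO with its 95% interval from limma for 31 of the 32 tested genes, grouped by role. EEF1D is left out because its interval, -2.00 to 0.83, exceeds the axis, and EIF5 at 0.23 is the one gene called.

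The plot of size of change shows how the factor genes sit in the distribution of all genes.

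**Figure D4:**
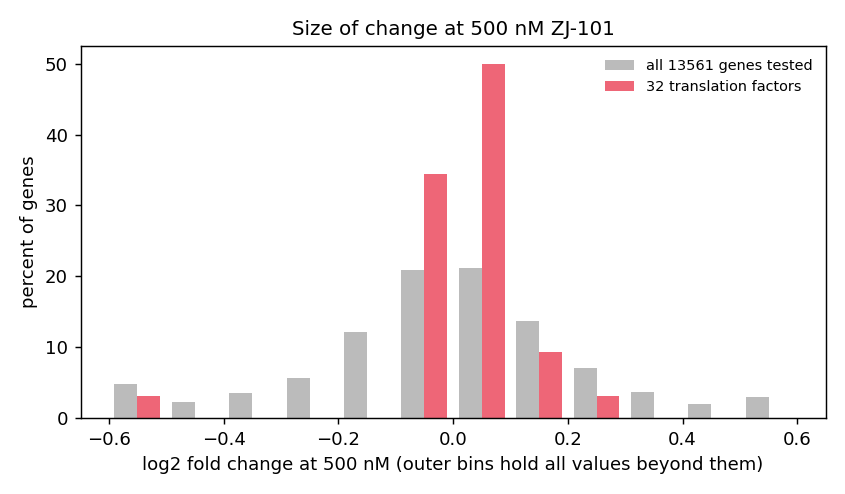
Bars give the percent of all tested genes (grey) and of the factor genes (red) in each bin of log2 change at 500 nM, with values beyond the range in the outer bins. The 32 factor genes have a median absolute change of 0.06 and all 13561 tested genes one of 0.12.

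Among the subunit-joining and start-codon factors, EIF5 (chromosome 14, 103333544 to 103345025, plus strand, GENCODE 44 on GRCh38) had 6005, 5975 and 6086 normalised counts in the DMSO libraries and 7045, 7050 and 7146 at 500 nM. At 0.5 nM it had 6160, 6466 and 5931, at 5 nM 6241, 6288 and 6023, and at 50 nM 6896, 6407 and 6448. All 3 libraries at 500 nM exceeded every one of the other 12, and all 3 at 50 nM exceeded every DMSO library. The change at 500 nM was 0.23 ± 0.04 (SE) on the log2 scale, with a 95% interval of 0.15 to 0.32 and an adjusted p of 4.8e-04. At 50 nM it was 0.13 with an adjusted p of 0.079, and at 0.5 and 5 nM it was 0.04 at each. The step from 50 to 500 nM was 0.11, with an unadjusted p of 0.020 and an adjusted p of 0.27 by limma. A line through the 5 groups had a slope of 0.06 per step of dose rank, counting DMSO as the lowest rank (adjusted p = 7.0e-04). The call at 500 nM was kept in all 26 alternative settings, with adjusted p from 1.0e-06 to 0.0039. In GENCODE 44, 7.7% of the EIF5 exon bases lie inside another gene model on the same strand.

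EIF6, which keeps free large ribosomal subunits from joining, had 2216, 2222 and 1994 normalised counts in DMSO and 2422, 2379 and 2375 at 500 nM. Between them, it had 2371, 2649 and 2144 at 0.5 nM, 2383, 2390 and 2268 at 5 nM, and 2264, 2386 and 2275 at 50 nM. The libraries at 5, 50 and 500 nM all lay above DMSO, and those at 0.5 nM overlapped with it. The change was 0.16 ± 0.06 (SE), with an interval of 0.03 to 0.29 and an adjusted p of 0.085. At 0.5, 5 and 50 nM it was 0.15, 0.13 and 0.11, with adjusted p of 0.25, 0.37 and 0.40. Replicate 3 of DMSO was the lowest of the 15 libraries and enters all of these differences. In GENCODE 44, 17.3% of its exon bases lie in another gene model on the same strand.

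EIF5B, the GTPase of subunit joining, had 2805, 2814 and 2894 in DMSO and 3147, 3103 and 3111 at 500 nM. At 5 nM it had 2803, 3259 and 3176, and at 50 nM 3088, 2966 and 3062. The 50 and 500 nM libraries did not overlap with DMSO, and 1 library at 5 nM lay below the DMSO range. The change at 500 nM was 0.14 ± 0.08 (SE) with an adjusted p of 0.30. Its 0.5 nM libraries read 2781, 3751 and 2784, so that the 0.12 change at that dose rested on the second of them and was -0.03 without it. Leaving out that one library also brought EIF5B (adjusted p = 0.030), EIF6 (0.016) and EIF3A (0.039) past the threshold at 500 nM, while the share of all tested genes called went from 17.8% to 22.8%.

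EIF5A, the hypusine-bearing factor that relieves stalled elongation, had a different profile over dose. Its DMSO libraries held 7553, 7649 and 7443 normalised counts, those at 0.5 nM 8524, 9371 and 8074, and those at 5 nM 8512, 8414 and 8037. At 50 nM the values were 7603, 7938 and 7918, and at 500 nM 7868, 7897 and 8146. Every library at 0.5, 5 and 500 nM was above every DMSO library, and those at 50 nM overlapped with DMSO. The change at 0.5 nM was 0.19 ± 0.05 (SE), with an interval of 0.10 to 0.29 and an adjusted p of 0.054. It was 0.14 without the library that stands apart. At 5, 50 and 500 nM the changes were 0.14, 0.05 and 0.08, with adjusted p of 0.16, 0.67 and 0.30. DESeq2 called EIF5A at 0.5 nM (adjusted p = 0.0062) and edgeR did not, and over all alternatives its adjusted p ranged from 0.0062 to 0.32. EIF5A has 2 near-identical loci elsewhere on the main chromosomes, and the assignment of reads between them was not tested.

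All 4 of these factors (EIF5, EIF5A, EIF5B and EIF6) had a log2 change above 0 at each of the 4 doses. Their medians were 0.13, 0.12, 0.10 and 0.15 from the lowest to the highest dose, against medians over the 32 genes of 0.05, 0.04, 0.02 and 0.01. All 4 doses are compared with the same 3 DMSO libraries, so these signs are not independent of each other. The entry at 0.5 nM rested on its replicate 2: without that library the 4 changes were 0.01 (EIF5), 0.14 (EIF5A), -0.03 (EIF5B) and 0.07 (EIF6), with a median of 0.04.

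**Figure D5:**
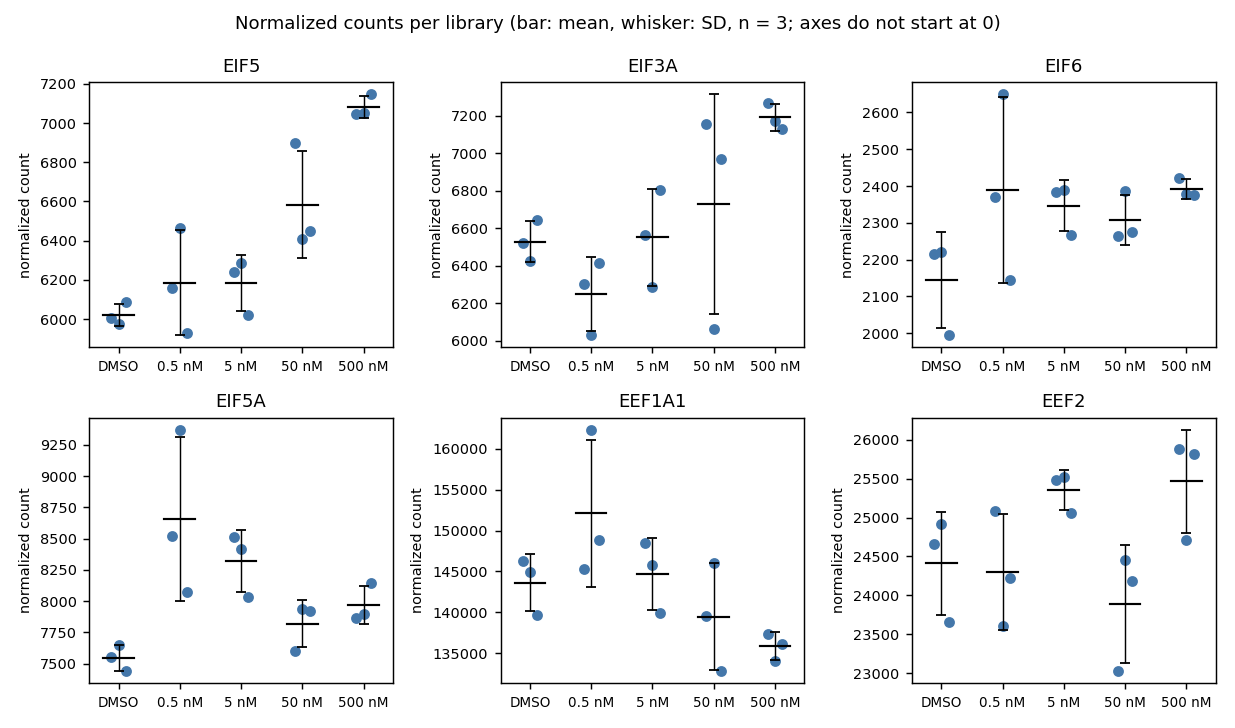
Normalised counts of selected factor genes in each of the 15 libraries (points), by group, with the mean and SD of 3 as bar and whisker and with axes that do not start at 0. For EIF5 the 3 libraries at 500 nM lie between 7045 and 7146, above all other libraries, while for EEF1A1 they lie between 133989 and 137397, below the 3 DMSO libraries.

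The eIF3 complex, the scaffold that binds the small subunit, had 13 tested subunits. None passed the test at 500 nM, against 17.8% of all tested genes called at that dose, and this difference was not tested. Their changes ran from -0.07 to 0.14 with a median of 0.03. The subunit with the smallest p was EIF3A (chromosome 10, 119033670 to 119080817, minus strand), a core subunit of the complex. It had 6520, 6424 and 6643 normalised counts in DMSO, 6302, 6029 and 6418 at 0.5 nM, and 6565, 6289 and 6803 at 5 nM. At 50 nM it had 7158, 6063 and 6969, and at 500 nM 7272, 7171 and 7133. The 500 nM libraries were above all DMSO libraries, while the 50 nM libraries spread from below the DMSO range to above it. The change at 500 nM was 0.14 ± 0.05 (SE), with an interval of 0.03 to 0.25 and an adjusted p of 0.077. The slope over dose rank was 0.04 ± 0.01 (SE) and passed narrowly (adjusted p = 0.049). That call was lost in 13 of the 15 fits that left out 1 library, up to an adjusted p of 0.14, and was kept without replicate 3 of DMSO or replicate 2 of 50 nM. It was also lost with no filter on low genes (0.12) and with TMM scaling (0.055).

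The slope test called 2 of 32 factor genes (6.25%), EIF5 and EIF3A, both upward, against 17.6% of all tested genes, 8.23% upward and 9.33% downward. Several of the other eIF3 subunits show how small the differences were. EIF3E had 5067, 5238 and 5091 normalised counts in DMSO and 5300, 5445 and 5427 at 500 nM, a change of 0.07 with an adjusted p of 0.34. EIF3G had 2022, 2032 and 2009 in DMSO and 2107, 2081 and 2124 at 500 nM, a change of 0.06 (adjusted p = 0.44). For both subunits the 500 nM libraries lay wholly above DMSO. EIF3J, a loosely bound subunit, was highest at 50 nM, with 2001, 1883 and 1889 against 1784, 1679 and 1766 in DMSO, a change of 0.14 with an adjusted p of 0.22.

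EIF3C has a near-identical locus, EIF3CL, and reads that fit both are hard to assign. The same limit holds for EIF1AX, EIF2S3 and EEF1G, with 1 near-identical locus each, and for EIF2S2, EIF5A and EEF1B2, with 2 each. EIF3C had 808, 650 and 528 normalised counts in DMSO and 703, 564 and 601 at 500 nM, and its change of -0.07 had an SE of 0.13 (adjusted p = 0.78). EIF3CL passed the slope test at 0.07 (adjusted p = 0.040). Summed over both loci the mean was 1165 ± 121 in DMSO and 1247 ± 160 at 500 nM (SD, n = 3), a difference smaller than either SD. For EIF3L, 51.8% of exon bases lie within other gene models, among them an lncRNA on the same strand.

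The 3 eIF2 subunits had 0 calls at any dose, a count that says little beside shares over all genes of 1.17% to 17.8%. EIF2S1, the subunit that carries the phosphorylation site of the stress kinases, had 4603, 4390 and 4318 normalised counts in DMSO, 4545, 4832 and 4364 at 0.5 nM, and 4597, 4652 and 4334 at 5 nM. At 50 nM it had 4729, 4638 and 4532, and at 500 nM 4591, 4785 and 4433, so every dose overlapped with DMSO. The change at 500 nM was 0.05 with an interval of -0.04 to 0.15 (adjusted p = 0.50), and leaving out 1 library gave 0.02 to 0.08. EIF2S2 had 4429, 4504 and 4407 in DMSO and 4634, 4609 and 4735 at 500 nM, a change of 0.07 (adjusted p = 0.51) with no overlap between the groups. EIF2S3 had 2084, 2045 and 2129 in DMSO, 2104, 2054 and 1917 at 0.5 nM, 1998, 2121 and 1950 at 5 nM, 1981, 1983 and 2109 at 50 nM, and 2059, 2044 and 2007 at 500 nM. All groups overlapped, and the change at 500 nM was -0.03 (adjusted p = 0.69).

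For eIF2B the 5 subunits ranged from -0.06 to 0.08 at 500 nM, and none passed the test. That count says little for 5 genes beside the 17.8% of all tested genes called at this dose. EIF2B2 had 1063, 1081 and 1003 normalised counts in DMSO, 1062, 1107 and 1068 at 0.5 nM, 1053, 1052 and 1027 at 5 nM, 1071, 1059 and 1015 at 50 nM, and 996, 1028 and 1000 at 500 nM. Its lowest libraries were at 500 nM, where they overlapped with DMSO through replicate 3, and the change was -0.06 (adjusted p = 0.44). EIF2B3 had 917, 895 and 774 in DMSO, 831, 905 and 857 at 0.5 nM, 777, 840 and 767 at 5 nM, 814, 840 and 815 at 50 nM, and 808, 818 and 843 at 500 nM. The 3 DMSO libraries spanned nearly the whole range of the 15, and the change at 500 nM was also -0.06 (adjusted p = 0.56), from -0.14 without replicate 3 of DMSO to -0.02 without replicate 1 of DMSO. The scanning factors EIF1, EIF1B and EIF1AX ranged from -0.02 to -0.00.

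EEF1A1, the most abundant mRNA of the set, had 146250, 144964 and 139649 normalised counts in DMSO and 137397, 133989 and 136135 at 500 nM. At 0.5 nM it had 145246, 162338 and 148812, at 5 nM 148480, 145779 and 139862, and at 50 nM 139597, 145996 and 132835. It was the one gene of the 32 whose 500 nM libraries all lay below DMSO. The change at 500 nM was -0.08 ± 0.06 (SE), with an interval of -0.20 to 0.04 and an adjusted p of 0.39. EEF2, the translocation factor, had 24655, 24917 and 23659 in DMSO, 25087, 23603 and 24223 at 0.5 nM, 25477, 25523 and 25054 at 5 nM, 23029, 24451 and 24183 at 50 nM, and 25882, 24706 and 25817 at 500 nM. Only the 5 nM libraries lay wholly above DMSO, and the change at 500 nM was 0.06 (adjusted p = 0.37). EEF1B2, the exchange subunit eEF1Bα, had 4884, 4917 and 4750 in DMSO and 4911, 4726 and 4943 at 500 nM, a change of 0.00. At 0.5 nM EEF1B2 had 5258, 6061 and 5199, all above DMSO, with a change of 0.18 (adjusted p = 0.13) that was 0.11 without the second library.

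EEF1D and EEF1G gave no usable comparison. EEF1D, the delta subunit of eEF1B, had 134, 50.6 and 59.9 normalised counts in DMSO, 27.8, 44.1 and 45.9 at 0.5 nM, 212, 35.7 and 34.0 at 5 nM, 30.1, 48.0 and 271 at 50 nM, and 51.0, 68.8 and 33.6 at 500 nM. The high values fell in single libraries of DMSO, 5 nM and 50 nM. Its change at 500 nM was -0.58 ± 0.67 (SE), and leaving out 1 library gave -0.85 to -0.16. EEF1D has a copy on an alternate contig of the build. For EEF1G, 99.7% of exon bases lie within another protein-coding gene model on the same strand (GENCODE 44), and the part of this overlap in the listed 0 was not tested.

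At the lower doses no factor gene passed the test. At 0.5 nM, 0 of 32 were called by limma and 0 by edgeR, 1 by DESeq2 (EIF5A), against 1.17% of all tested genes called by limma (0.251% higher, 0.922% lower), 0.996% by edgeR and 2.22% by DESeq2. At an unadjusted p of 0.05, 3 of 32 passed (9.38%), all upward, against 14.7% of all genes. The median change was 0.05 and fell to 0.00 when the library that stands apart was left out. At 5 nM, 0 were called by limma, edgeR or DESeq2, against 2.18% of all genes called by limma (0.465% higher, 1.71% lower), 2.40% by edgeR and 3.07% by DESeq2, and 3 passed unadjusted (9.38%), against 12.9% of all genes. At 50 nM, 0 were called by limma and edgeR, and 1 by DESeq2 (EIF5, adjusted p = 0.041), against 6.00% of all genes called by limma (2.29% higher, 3.71% lower), 6.05% by edgeR and 6.96% by DESeq2, and 2 passed unadjusted (6.25%), against 17.4% of all genes. Between 50 and 500 nM, 0 were called by any of the 3 tools, against 2.28% of all genes called by limma (0.479% higher, 1.80% lower), 2.25% by edgeR and 3.76% by DESeq2, and 2 passed unadjusted (6.25%), against 13.1% of all genes.

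Groups without overlap were also counted at the lower doses, which share the same 3 DMSO libraries, so that these counts are not separate evidence. At 0.5 nM, 5 genes lay wholly above DMSO and 2 wholly below (21.9% in all), against 18.1% of all tested genes (7.43% higher, 10.7% lower). The 5 were EIF3D, EIF3G, EIF3I, EIF5A and EEF1B2, with changes of 0.09 to 0.19, and the 2 were EIF3A and EEF1D. At 5 nM, 6 genes were wholly above and 0 below (18.8%), against 23.2% (10.5% and 12.7%), and at 50 nM the same counts of 6 and 0 stood against 24.8% (11.6% and 13.2%). Only EIF6 was among the 6 at both of these doses. Between 50 and 500 nM, EIF3G, EIF5, EIF5B and EEF2 were wholly higher at 500 nM and 0 were lower, against 20.2% of all genes (9.67% and 10.5%).

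TOP starts were set beside the changes at 500 nM. The 8 TOP genes whose windows are given above ran from -0.08 to 0.07 with a median of 0.00, and the 17 matched and tested genes without one ran from -0.07 to 0.23 with a median of 0.02. Of the 8 TOP genes 0 passed the test at any dose, where the shares of all tested genes called were 1.17%, 2.18%, 6.00% and 17.8% from the lowest dose to the highest, so this count does not set them apart. Ribosomal protein genes, the largest TOP class, had a median of 0.01 at 500 nM. Of the 82 listed and tested, only the RPL7-like gene RPL7L1 was called, at 0.12 (adjusted p = 0.025 by limma). That call was lost in 6 of 15 fits that left out 1 library and with no filter on low genes (0.098). At 0.5 nM 80 of these 82 were above 0 at a median of 0.16, which was 0.08 without the library that stands apart.

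Other genes of the translation pathway came from lists by role, and their counts at 500 nM stand against the 17.8% of all tested genes called at that dose. Of the eIF4 group, which binds the cap and unwinds the leader, 13 of 14 were tested and 2 rose at 500 nM, 0 fell. EIF4G1, the scaffold, rose by 0.22 (adjusted p = 0.0020), and the cap-binding EIF4E had a change of 0.01. EIF4A1, the helicase, rose by 1.35 (adjusted p = 0.0015 by limma), and also passed at 50 nM at 1.11 (adjusted p = 0.017). At 0.5 and 5 nM its changes were already 0.97 and 0.96 (adjusted p = 0.10 and 0.081). Every dose was compared with the same DMSO libraries, at 11.1 to 13.2 normalised counts. EIF4A1 had only 11.1 to 45.5 over all libraries, and the part of read assignment in these low counts was not tested. Of 6 genes for eIF2α kinases and phosphatase subunits, 2 rose and 1 fell at 500 nM. EIF2AK2 (PKR) rose by 0.33 (adjusted p = 0.0016) and PPP1R15A (GADD34, a phosphatase subunit) by 0.32 (adjusted p = 0.0022). EIF2AK3 (PERK) fell by 0.43 on the log2 scale (adjusted p = 5.5e-04). The last 2 genes also passed at 50 nM, PPP1R15A at 0.43 (adjusted p = 3.8e-04) and EIF2AK3 at -0.27 (adjusted p = 0.046). The difference between this list and the eIF2 and eIF2B subunits, with 0 of 8 called, was not tested.

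Among 15 tested enzymes that modify the factors, 2 rose and 0 fell at 500 nM, against 17.8% of all tested genes called. DPH2, of the diphthamide pathway that modifies eEF2, rose by 0.37 (adjusted p = 0.0045). EEF2KMT, a lysine methyltransferase of eEF2, rose by 0.38 (adjusted p = 0.041), a call lost in 7 of 15 fits that left out 1 library (up to 0.16), with DESeq2 (0.060) and with no filter on low genes (0.067). In the remaining lists, 0 of 11 tested paralogous and accessory factors and 0 of 3 termination factors were called by limma at 500 nM, with 2 higher and 1 lower and with 1 higher at an unadjusted p of 0.05, which 29.3% of all genes passed.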

How the data were processed

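RNA of 15 MDA-MB-231 libraries (5 groups, 3 each, 6 h) was sequenced. Per the labels and methods, the authors aligned reads to hg38 with HISAT2, counted them per GENCODE gene with htseq-count and divided by DESeq2 size factors; versions, release and strandedness are not given in the sources used here. The deposited values are normalised counts, that is signal proportional to reads, and dividing by a library's smallest step gave whole reads for 100.0% of values (tolerance 0.001). One line named no gene. Size factors ran from 0.916 to 1.132.

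log2(value + 1) was fitted with limma 3.58.1 (trend; R 4.3.3) for genes with a mean of at least 10, all groups in 1 fit with 10 residual degrees of freedom, Benjamini-Hochberg adjustment and a threshold of 0.05. The contrasts were each dose against DMSO, 500 against 50 nM, and a slope on dose rank. Recovered reads were tested with edgeR 4.0.16 (quasi-likelihood) and DESeq2 1.42.0 as alternatives; other pseudocounts, filters, scalings, a replicate block and leaving out each library were also tried. Positions and exon overlap are from GENCODE 44, near-identical loci from minimap2 2.31 alignment, starts from RefSeq. Code was tested on simulated data. The factor genes and all lists were chosen with earlier results of these data known. Values in all 15 libraries were given, by rule, for the 5 genes with the smallest p in each direction at 500 nM and for EEF1A1, EEF2, EIF2S1 and EIF5A; in other lists up to 3 called genes in each direction were named. EIF2S2, EIF3C, EIF3E, EIF3G, EIF3J and EEF1B2 were described after their values were seen.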

Additional observations from a re-analysis of the deposited data

How the results depend on the processing

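EIF5 at 500 nM kept its direction and its call under all 26 alternatives, at 0.23 to 0.24 without any 1 library, and no call among the 12 genes given in full, or among the 8 pathway genes tried at 500 nM, turned its direction. The calls of EIF3CL and of the markers, and those of pathway genes at 50 nM, were not tried under the alternatives. Among genes that were not called, without replicate 2 of 0.5 nM EIF5B at that dose went from 0.12 to -0.03 and EIF3M from 0.05 to -0.04, and the EIF5A slope, 0.00, ran from -0.04 to 0.01. The number of factor genes called moved more. At 0.5 nM it was 0, and 1 with a mean of at least 50, a replicate block, TMM scaling, DESeq2 or an adjusted p under 0.1. In each case the gene was EIF5A, and the share of all genes called ran from 1.10% to 2.22% over these settings. Leaving out single libraries gave 0 to 3. EIF5A, EIF6 and EEF1B2 were called without replicate 3 of 0.5 nM, where the share of all genes called went from 1.17% to 2.88%. At 5 nM it was 0, and 1 (EIF5A) with the compared groups alone (all genes 2.18% to 6.24%). Leaving out libraries gave 0 to 1, the 1 without replicate 2 of 0.5 nM (all genes 4.59%). At 50 nM it was 0, and 1 (EIF5) with DESeq2 (all genes 6.96%) or an adjusted p under 0.1 (all genes 8.80%). Leaving out libraries gave 0 to 2, the 2 (EIF3J and EIF5) without replicate 2 of 0.5 nM (all genes 6.00% to 9.41%). At 500 nM it was 1, and 3 with a replicate block (EIF3A, EIF5 and EIF6) or an adjusted p under 0.1. It was 4 with the compared groups alone, with EIF5B added. The share of all genes went from 17.8% to 18.5% with the block and to 24.3% with the compared groups alone. With an adjusted p under 0.1 that share also rose, to between 18.5% and 24.3%. Leaving out libraries gave 1 to 4 at 500 nM, with 4 without replicate 2 of 0.5 nM (all genes 22.8%). It gave 2 without replicate 3 of 0.5 nM (all genes 18.7%) or without replicate 2 of 50 nM (all genes 18.1%). Between 50 and 500 nM it was 0 in every setting. For the slope it was 2, 1 with no filter or TMM scaling, and 3 in the 12 treated libraries alone, where EEF1B2 was added at -0.06 (adjusted p = 0.044). Leaving out libraries gave 1 to 3, with 3 without replicate 2 of 0.5 nM. The share of all genes called was 17.6%, 6.03% with no filter and 17.5% with TMM scaling. It was 17.8% in the treated libraries alone and 19.8% without that replicate. The cause of these moves was not tested.

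No pairing by the labels' replicate numbers was detected: over 30 same-numbered pairs the correlation of deviations ran from -0.09 to 0.1 and 0 exceeded 0.1. These correlations were taken over all tested genes and cannot show that the libraries were unpaired. Other scalings left the median log2 change of all genes between -0.011 and 0.009. With 3 libraries a group, changes of the size seen for EIF6, EIF5B and EIF3A fell on either side of the threshold depending on the setting. DESeq2 gave no adjusted p to 1 factor gene at 0.5 nM and to 1 between 50 and 500 nM.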
